A study of Mus musculus with 24 samples.

Results

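The genes described here are the receptors and co-receptors of Wnt signalling that the count table holds under 10 names: the Frizzled genes Fzd1, Fzd2, Fzd3, Fzd4, Fzd5, Fzd7, Fzd8 and Fzd10, and the co-receptor genes Lrp5 and Lrp6. They were taken by gene name from 55401 entries, and all 10 were among the 17144 genes that passed the filter on low counts. RNA of CJ9 cells, a mouse embryonic stem cell line, was sequenced as polyA+ libraries in 2 genotypes, wild-type and Setd3 knock-out. SETD3 is the enzyme that methylates a histidine of actin. The knock-out was made with CRISPR-Cas9 and is 1 line, so what is particular to that line and what follows from the loss of Setd3 cannot be told apart. Both genotypes were grown with LIF and antibiotics on inactivated mouse embryonic fibroblasts, which are feeder cells (day 0). They were then taken off the feeders and kept without serum in endoderm medium until day 2, when they were dissociated and replated with Activin A, a ligand of the Nodal receptors, for days 3 and 4. The 8 groups of genotype and day held 3 libraries each. Nothing states that the libraries of a group came from separate cultures, so p-values measure the spread between these libraries, which may be technical.

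Wnt proteins are secreted, lipid-modified ligands. A Wnt binds the cysteine-rich outer domain of a Frizzled, a multi-pass membrane receptor, together with the co-receptor LRP5 or LRP6. The Frizzled then recruits Dishevelled and the co-receptor tail recruits Axin, which spares beta-catenin from degradation. Frizzled proteins also act without LRP5 or LRP6, in planar cell polarity. In the embryo Wnt signalling is needed to form the primitive streak, the source of mesoderm and definitive endoderm, and FZD7 is the Frizzled best known from pluripotent stem cells. By sequence the family falls into FZD1, FZD2 and FZD7, into FZD5 and FZD8, into FZD4, FZD9 and FZD10, and into FZD3 and FZD6.

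The coding bases below show how alike the receptors are at the stretch through which a Frizzled binds Dishevelled, the Lys-Thr-X-X-X-Trp motif just after the last membrane segment. Each window is 30 bases of the coding strand in build GRCm38, read from the GENCODE M21 transcripts, and the capitals mark the Lys, Thr and Trp codons.
Fzd7 (chr1:59484601-59484630, plus strand): tcgggcAAGACCctgcagtcaTGGcgtcgc
Fzd2 (chr11:102606367-102606396, plus strand): tccggcAAGACActgcactcgTGGaggaag
Fzd1 (chr5:4755700-4755729, minus strand): tccggcAAGACActgaattccTGGaggaag
Fzd5 (chr1:64735005-64735034, minus strand): tccggcAAGACTctggagtctTGGcggcgg
Fzd10 (chr5:128602790-128602819, plus strand): acttccAAGACCctgcagtccTGGcaacac
Fzd4 (chr7:89408235-89408264, plus strand): tctgccAAAACTcttcacacgTGGcaaaag
Fzd3 (chr14:65212101-65212130, minus strand): agcaaaAAGACAtgctttgaaTGGgccagt
Each of the 8 Frizzled members held the motif once in its coding sequence. Against the Fzd7 window, the Fzd5 window differed at 6 of 30 bases, those of Fzd8 and Fzd10 at 8, Fzd2 at 9, Fzd1 at 10, Fzd4 at 13 and Fzd3 at 20. The coding sequences were also aligned over their whole length. Identical bases made up 80.82% of the shorter sequence for Fzd1 and Fzd2, 76.07% for Fzd5 and Fzd8, and 67.47% for Lrp5 and Lrp6. Over stretches of 50 bases, a length set here, these genes were distinct. None of the 50-base stretches of Fzd1, Fzd2, Fzd7, Fzd8 and Fzd10 transcripts occurred in another gene. For Fzd3, Fzd4, Lrp5 and Lrp6 at most 0.758% did. Fzd5 was the exception, since 16.45% of its stretches lay in Gm38058, a gene on the opposite strand that overlaps 1233 bases of its exons. Gm38058 had 0 to 17 counts in any library against 767 to 12733 for Fzd5. The strand setting of the counting was not given in the sources used here. Whether the counting told reads of Fzd5 and Gm38058 in the overlap apart is thus not known.

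In build GRCm38 Fzd7 (ENSMUSG00000041075) lies at chr1:59482424-59486955 on the plus strand and Fzd5 (ENSMUSG00000045005) at chr1:64730558-64737751 on the minus strand. The promoters of Fzd7 and Fzd5, the pair of Frizzled genes that led by level, are shown because their mRNAs took different courses from day 0 to day 4. The 250 bases before the RefSeq start of each gene (build GRCm38.p6) are given with GC boxes, GGGCGG on either strand, in capitals.
Fzd7 (chr1:59481897-59482146, plus strand): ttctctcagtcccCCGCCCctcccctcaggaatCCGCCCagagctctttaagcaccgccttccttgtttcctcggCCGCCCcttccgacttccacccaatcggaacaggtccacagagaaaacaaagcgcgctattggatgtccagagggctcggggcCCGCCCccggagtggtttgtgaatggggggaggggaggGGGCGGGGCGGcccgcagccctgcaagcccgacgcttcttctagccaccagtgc
Fzd5 (chr1:64737751-64738000, minus strand): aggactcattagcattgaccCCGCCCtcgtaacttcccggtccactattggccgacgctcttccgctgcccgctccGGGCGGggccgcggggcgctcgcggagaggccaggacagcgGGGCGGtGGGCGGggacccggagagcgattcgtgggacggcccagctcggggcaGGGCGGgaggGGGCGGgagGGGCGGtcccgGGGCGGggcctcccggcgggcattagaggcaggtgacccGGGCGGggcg
GC made up 65.2% of the Fzd7 window and 76.4% of the Fzd5 window, against a median of 52.4% over 32851 promoters of the same length. GC boxes, overlapping matches counted, numbered 6 and 9, and 32.7% of all promoters held at least 1. The TCF/LEF word CTTTGAT was found in neither (3.21% of all promoters hold it), and the word CTTTGT occurred once, in Fzd7 (16.5%). CCAAT was found 2 times in Fzd7 and once in Fzd5 (33.8%), and the E-box CAGGTG once in Fzd5 (17.2%). The T-box word AGGTGTGA (1.12%) and its part AGGTGT (11.8%), which can overlap CAGGTG, were found in neither. Nor were the TATA word TATAAA (12.4%), the SMAD words GTCTAGAC (0.167%) and CAGAC (42.2%), the FOXH1-type word AATNNACA (10.9%), the GATA word AGATAA (9.99%) and the SOX word ATTGT (27.7%). Both strands were searched for all 13 words. A match is a description of these letters, not a site. RefSeq windows were also at hand for Fzd1, Fzd4 and Fzd10. The RefSeq start of Fzd7 lies 277 bases before the GENCODE start and that of Fzd5 within 1 base of it.

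Total counts ran from 18531390 to 24244958 per library. Setd3 was at 97.1 to 127 CPM (read counts relative to a library size scaled by TMM) across wild-type libraries and at 29.1 to 48.8 CPM across knock-out libraries, and this mRNA level says nothing of where the gene was edited. The embryonic stem cell label fitted Pou5f1 (441 CPM in wild-type and 421 CPM in knock-out at day 0) and Nanog (444 and 407 CPM), while Sox2 was listed at 0 counts in every library and could not be used. The 6 definitive endoderm markers summed to 1665 to 1890 CPM in wild-type libraries at day 4 and to 90.0 to 218 CPM in the knock-out. In wild-type libraries of day 3 they summed to 601, 329.6 and 219 CPM for replicates 1, 2 and 3, so replicate 1 stood apart. The 12 fibroblast markers summed to 953 to 2579 CPM at day 0 and to 18.05 to 150 CPM afterwards. In these bulk libraries, fewer cells of a type and less RNA per cell cannot be told apart.

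**Figure D1:**
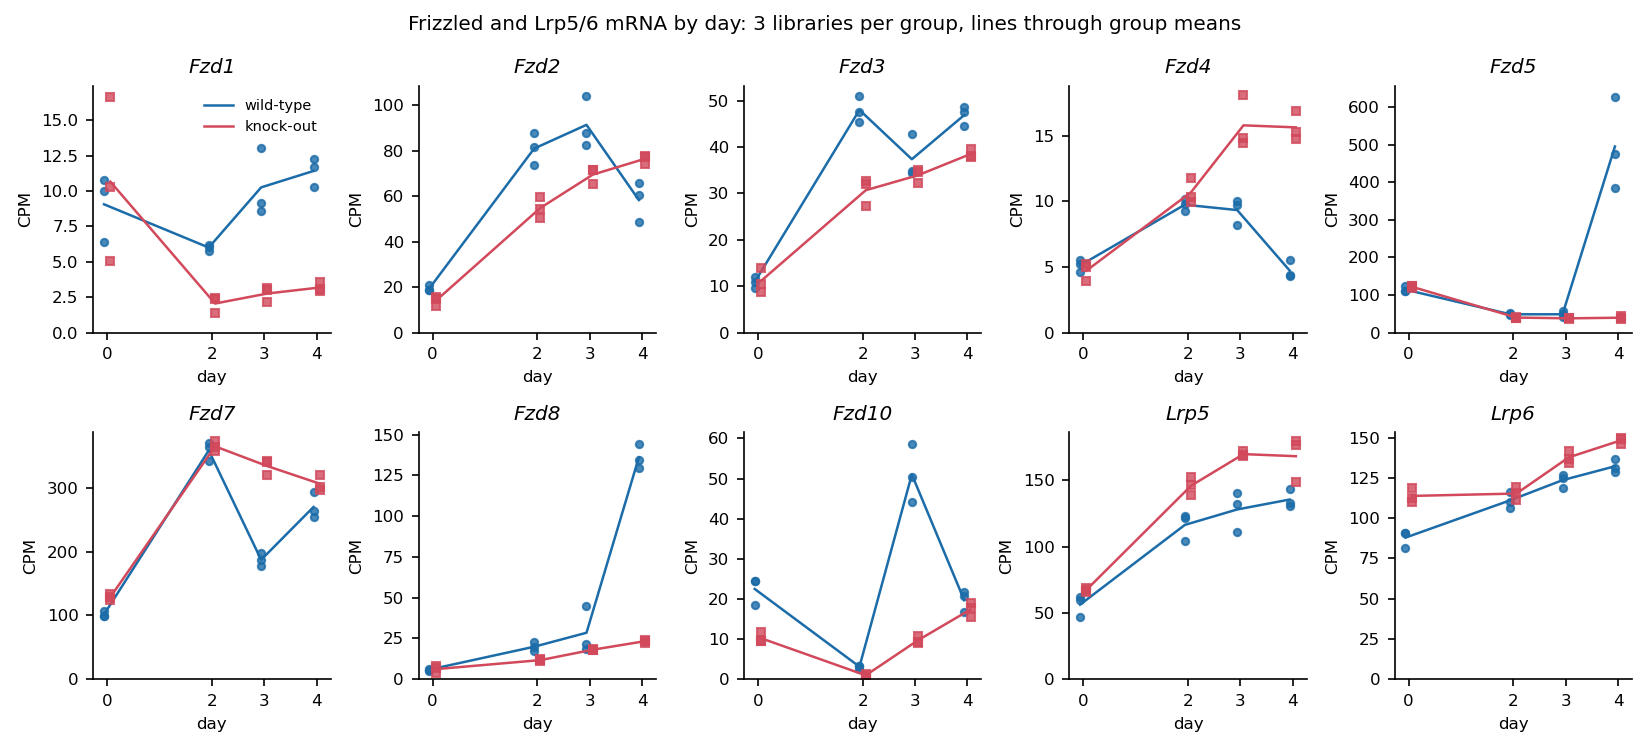
Level of each gene in CPM (vertical axis, linear from 0) by day of differentiation, with 3 libraries per group as points and lines through the group means, wild-type in blue circles and knock-out in red squares. Fzd5 and Fzd8 reach their highest values in the 3 libraries of wild-type day 4, and Fzd10 in those of wild-type day 3.

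Dividing CPM by the kilobases of merged exons allows levels to be compared between genes. On this scale Fzd7 was the highest of the 8 Frizzled genes in all 3 libraries of 7 groups, and Fzd5 was the highest in 2 of 3 wild-type libraries at day 4. Fzd7 made up 40.2 ± 2.79% of the summed wild-type Frizzled level on day 0, 66.5 ± 1.73% on day 2, 41.4 ± 4.89% on day 3 and 32.7 ± 1.21% on day 4 (mean ± SD, n = 3 throughout). Its company changed at each step. At day 0 it was accompanied by Fzd5 (29.5 ± 1.67%) and Fzd10 (12.3 ± 1.62%), and at day 2 by Fzd2 (18.49 ± 1.21%). At day 3 the wild-type mixture held Fzd2 (24.7 ± 1.31%) and Fzd10 (15.6 ± 1.35%), and at day 4 it held Fzd5 (38.7 ± 5.30%) and Fzd8 (12.5 ± 0.673%).

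In the knock-out Fzd7 kept the largest share at each day. It made up 48.9 ± 2.32%, 74.6 ± 0.921%, 67.2 ± 1.006% and 61.8 ± 1.43% of the summed level at days 0, 2, 3 and 4. Fzd2 was next from day 2 on, at 13.8 ± 0.969%, 17.2 ± 1.09% and 19.0 ± 0.287%. Fzd5 stayed between 4.76% and 5.81% in the knock-out libraries of days 2 to 4, against 33.6% to 44.2% in wild-type libraries of day 4. The summed Frizzled level per kilobase went from 55.9 ± 1.30 to 119 ± 4.88, 101 ± 7.13 and 183 ± 20.2 CPM in wild-type cells over the 4 days. In the knock-out it went from 58.1 ± 3.48 to 108 ± 2.51, 110 ± 2.80 and 110 ± 3.03 CPM. These shares are descriptions with no test, and they leave out Fzd6 and Fzd9. With Fzd6 and Fzd9 in the sum, the Fzd7 share was 30.7% and the Fzd5 share 36.4% in wild-type cells at day 4, and 54.9% and 4.64% in the knock-out. Per kilobase, Fzd6 averaged 9.31 CPM in wild-type cells at day 3, against 7.04 CPM for Fzd5. In the knock-out it averaged 8.76 CPM at day 3 and 13.2 CPM at day 4, against 5.48 and 5.73 CPM for Fzd5. In all other groups the Fzd6 mean was below that of Fzd5.

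**Figure D2:**
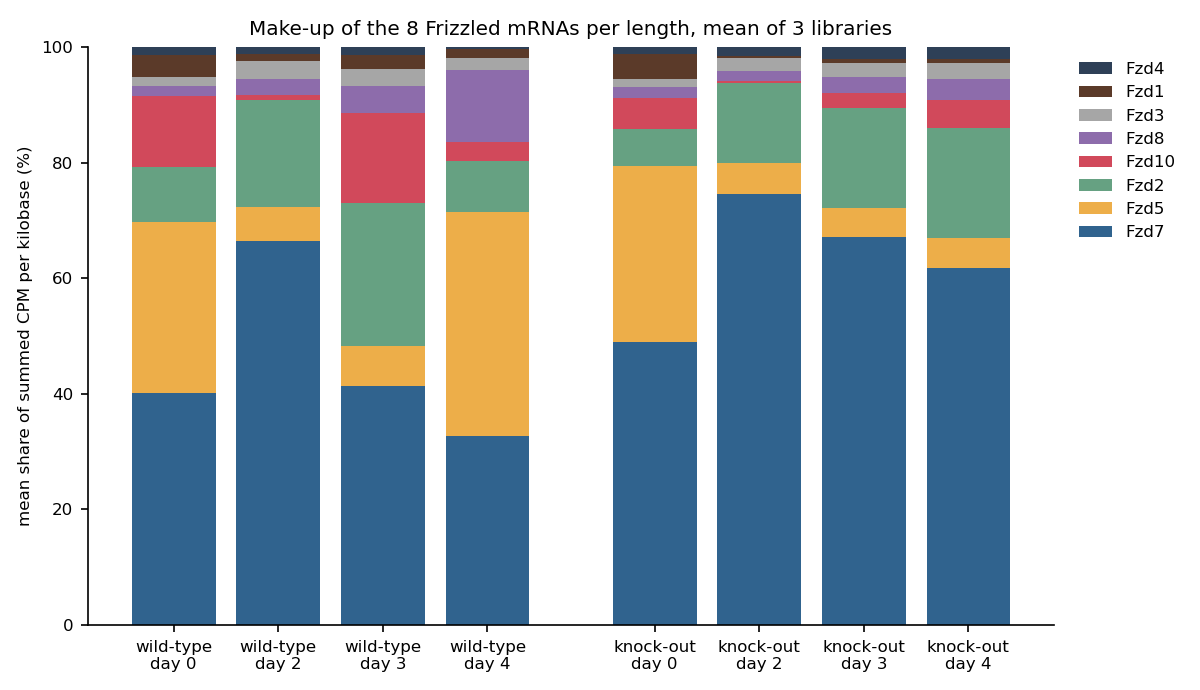
Mean share of each Frizzled gene in the summed CPM per kilobase of the 8 genes (vertical axis, percent), for the 4 wild-type and the 4 knock-out groups, 3 libraries each. At day 4 Fzd5 fills 38.7% and Fzd8 12.5% of the wild-type bar, while Fzd7 fills 61.8% of the knock-out bar.

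Across the wild-type course the first question was how the receptors changed when stem cells left the feeders. From day 0 to day 2, 7 of 10 members rose and 2 fell, where 32% of all tested genes rose and 31.8% fell (adjusted p under 0.05 in the quasi-likelihood test of edgeR, as for all calls here). Fzd2, which acts with Fzd7 in tissue movements, rose from 18.55, 20.8 and 18.9 CPM in replicates 1, 2 and 3 to 87.6, 81.6 and 73.5 CPM (log2 fold change 2.06 ± 0.11, adjusted p = 2.59e-13, where ± is the standard error). Fzd3, a receptor of planar polarity and axon guidance, rose from 10.995, 11.98 and 9.70 to 51.0, 45.4 and 47.5 CPM (log2 fold change 2.14 ± 0.12, adjusted p = 6.83e-14). Fzd7 rose from 107, 99.3 and 98.6 to 371, 343 and 364 CPM (log2 fold change 1.82 ± 0.06, adjusted p = 1.54e-18). In each of these 3 genes every day 2 library was above every day 0 library. Fzd8 (1.77 ± 0.27), Lrp5 (1.05 ± 0.09), Fzd4 (0.93 ± 0.14) and Lrp6 (0.34 ± 0.05, log2 fold changes) also rose. Fzd10 fell from 18.55, 24.4 and 24.5 to 3.36, 3.37 and 2.54 CPM (log2 fold change -2.86 ± 0.16, adjusted p = 8.34e-14), and Fzd5 fell from 109.5, 109 and 124 to 51.0, 48.8 and 46.1 CPM (log2 fold change -1.23 ± 0.14, adjusted p = 1.76e-07).

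Over the first day with Activin A, Fzd10, Fzd7 and, by less, Fzd3 reversed the direction of their wild-type change, with calls at both steps. From day 2 to day 3, 3 of 10 members rose and 2 fell, beside 21.4% and 21.1% of all genes. Fzd10, known from the primitive streak of the embryo, rose from 3.36, 3.37 and 2.54 to 58.6, 50.4 and 44.1 CPM, 16.5-fold (log2 fold change 4.04 ± 0.16, adjusted p = 1.2e-15). Fzd7 fell to 177, 187 and 199 CPM (log2 fold change -0.94 ± 0.05, adjusted p = 1.85e-12). The other calls were smaller: Fzd1 rose (0.77 ± 0.29), Lrp6 rose (0.15 ± 0.05) and Fzd3 fell (-0.36 ± 0.11), each on the log2 scale. The Fzd1 call was lost without wild-type day 3 replicate 1 or any day 2 library of the wild type (adjusted p 0.0789 to 0.183), and without the filter on low counts. Without day 3 replicate 2 Fzd3 was at -0.30 (adjusted p = 0.0522) and Lrp6 at 0.14 (adjusted p = 0.063), and without day 2 replicate 2 Lrp6 was at 0.12 (adjusted p = 0.0816), where the count of 5 changed members became 3. The Lrp6 call was also lost without the filter (adjusted p = 0.0691) and in the fit on the compared groups alone (adjusted p = 0.0716). Fzd8 stood at 44.9, 21.8 and 18.6 CPM, with replicate 1 well above the others, and its change from day 2 did not pass the test (log2 fold change 0.52 ± 0.24, adjusted p = 0.0865). It passed without replicate 2, at 0.68 (adjusted p = 0.0405), and without replicate 3, at 0.75 (adjusted p = 0.0105). Replicate 1 also had the highest sum of definitive endoderm markers of the group, and the part of this in the Fzd8 value was not tested.

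Over the second day with Activin A, Fzd5 and Fzd8 rose in wild-type cells. From day 3 to day 4, 4 of 10 members rose and 3 fell, beside 22.4% and 23.1% of all genes. Fzd5 rose from 56.6, 49.1 and 40.3 CPM to 626, 475 and 384 CPM, 10.2-fold (log2 fold change 3.35 ± 0.14, adjusted p = 1.81e-12). Its close relative Fzd8 rose to 144, 135 and 129.6 CPM, 4.78-fold (log2 fold change 2.26 ± 0.23, adjusted p = 2.23e-07). No library of day 3 reached a library of day 4 for either gene. Within day 4 the order of the Fzd5 levels, replicate 1 above 2 above 3, was also the order of the definitive endoderm marker sums (1890.5, 1751 and 1665 CPM), of the mesoderm marker sums (207, 121 and 114 CPM) and of the extraembryonic endoderm marker sums (72.2, 49.1 and 33.2 CPM). Whether these move together through the makeup of the cultures was not tested. Fzd7 rose (0.53 ± 0.05) and Fzd3 rose (0.33 ± 0.11), while Fzd10 (-1.37 ± 0.13), Fzd4 (-0.98 ± 0.14) and Fzd2 (-0.65 ± 0.10, log2 fold changes) fell. The Fzd3 call was lost without wild-type day 3 replicate 2 or 3 or day 4 replicate 2 (adjusted p 0.0543 to 0.0803). Per kilobase, Fzd5 reached 90.6, 68.6 and 55.5 CPM and Fzd7 64.8, 58.2 and 56.2 CPM, so their levels overlapped between libraries.

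The same steps were then followed in the knock-out. From day 0 to day 2, 6 of 10 members rose and 3 fell in the knock-out, beside 29.5% and 30.6% of all genes. The changes of Fzd7 (1.51 ± 0.06), Fzd2 (1.98 ± 0.12), Fzd3 (1.46 ± 0.12), Fzd4 (1.18 ± 0.14), Lrp5 (1.12 ± 0.09) and Fzd8 (0.93 ± 0.28) were upward. Fzd10 (-3.43 ± 0.20), Fzd1 (-2.37 ± 0.33) and Fzd5 (-1.61 ± 0.14, log2 fold changes) fell. Without knock-out day 0 replicate 3 Fzd8 was at 0.71 (adjusted p = 0.0532). From day 2 to day 3, 4 members rose and 0 fell, beside 14.7% and 14.4% of all genes: Fzd10 (3.36 ± 0.20), Fzd4 (0.56 ± 0.13), Fzd2 (0.34 ± 0.11) and Lrp6 (0.26 ± 0.05). The Fzd2 call was lost without knock-out day 2 replicate 1 or 2 or day 3 replicate 1 or 3 (adjusted p 0.0534 to 0.097). From day 3 to day 4, 1 member rose and 0 fell, beside 5.76% and 5.83% of all genes. That member was Fzd10, which rose from 10.8, 9.06 and 9.25 to 17.6, 15.5 and 19.0 CPM (log2 fold change 0.84 ± 0.14, adjusted p = 0.000248). Fitted on the compared groups alone, the count of changed members was 7 from day 2 to day 3 and 4 from day 3 to day 4. The share over all genes was not taken for that fit, so whether it called more genes in general was not tested. Fzd5 stood at 38.7, 39.8 and 35.2 CPM at day 3 and at 38.4, 36.5 and 43.8 CPM at day 4 in the knock-out (log2 fold change 0.06 ± 0.14, adjusted p = 0.835), and Fzd8 at 17.99, 18.4 and 17.7 and 23.6, 22.3 and 23.9 CPM (log2 fold change 0.37 ± 0.24, adjusted p = 0.36). Every Fzd8 library of day 4 was above every one of day 3, and the fit on the compared groups alone called it (adjusted p = 0.00101).

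Whether the steps differed between genotypes was tested as the knock-out step minus the wild-type step in the same fit. From day 3 to day 4 the steps of 6 of 10 members differed, 3 upward and 3 downward, beside 12.6% and 11.2% of all genes. Downward differences were found for Fzd5 (log2 fold change -3.28 ± 0.20, adjusted p = 1.12e-09), Fzd8 (log2 fold change -1.89 ± 0.33, adjusted p = 0.000323) and Fzd7 (log2 fold change -0.65 ± 0.08, adjusted p = 9.08e-07). Upward differences were found for Fzd10 (log2 fold change 2.21 ± 0.19, adjusted p = 8.42e-09), Fzd4 (log2 fold change 0.96 ± 0.19, adjusted p = 0.000399) and Fzd2 (log2 fold change 0.79 ± 0.15, adjusted p = 0.000367). For Fzd10, Fzd4 and Fzd2 the wild-type level fell on this step, and in the knock-out Fzd10 rose while Fzd4 and Fzd2 did not pass the test. From day 2 to day 3, 3 members differed upward and 0 downward, beside 6.61% and 4.33% of all genes: Fzd7 (0.81 ± 0.08), Fzd4 (0.62 ± 0.18) and Fzd3 (0.51 ± 0.15). The adjusted p was 2.06e-07 for Fzd7, 0.0262 for Fzd4 and 0.0337 for Fzd3. The Fzd3 call was lost without wild-type day 2 replicate 1 or 3, wild-type day 3 replicate 2 or 3, knock-out day 2 replicate 1, or knock-out day 3 replicate 1 or 3 (adjusted p 0.0575 to 0.114). The Fzd4 call was lost without wild-type day 2 replicate 1 or 3, wild-type day 3 replicate 1, knock-out day 2 replicate 1 or 2, or knock-out day 3 replicate 2 (adjusted p 0.0539 to 0.103). Without wild-type day 2 replicate 1, wild-type day 2 replicate 3 or knock-out day 2 replicate 1, that count of 3 became 1. From day 0 to day 2, 0 members differed upward and 4 downward, beside 4.27% and 3.07% of all genes: Fzd1 (-1.78 ± 0.44), Fzd3 (-0.68 ± 0.17), Lrp6 (-0.32 ± 0.07) and Fzd7 (-0.32 ± 0.08). Without knock-out day 2 replicate 1 that count was 2, with Fzd3 at -0.58 (adjusted p = 0.0519) and Fzd7 at -0.28 (adjusted p = 0.056). The Fzd1 difference was -1.56 (adjusted p = 0.0574) without knock-out day 2 replicate 3, and the fit on the compared groups alone gave -1.77 (adjusted p = 0.0808) for Fzd1 and -0.67 (adjusted p = 0.0549) for Fzd3. The Fzd1 call was also lost without the filter on low counts (adjusted p = 0.0502).

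**Figure D3:**
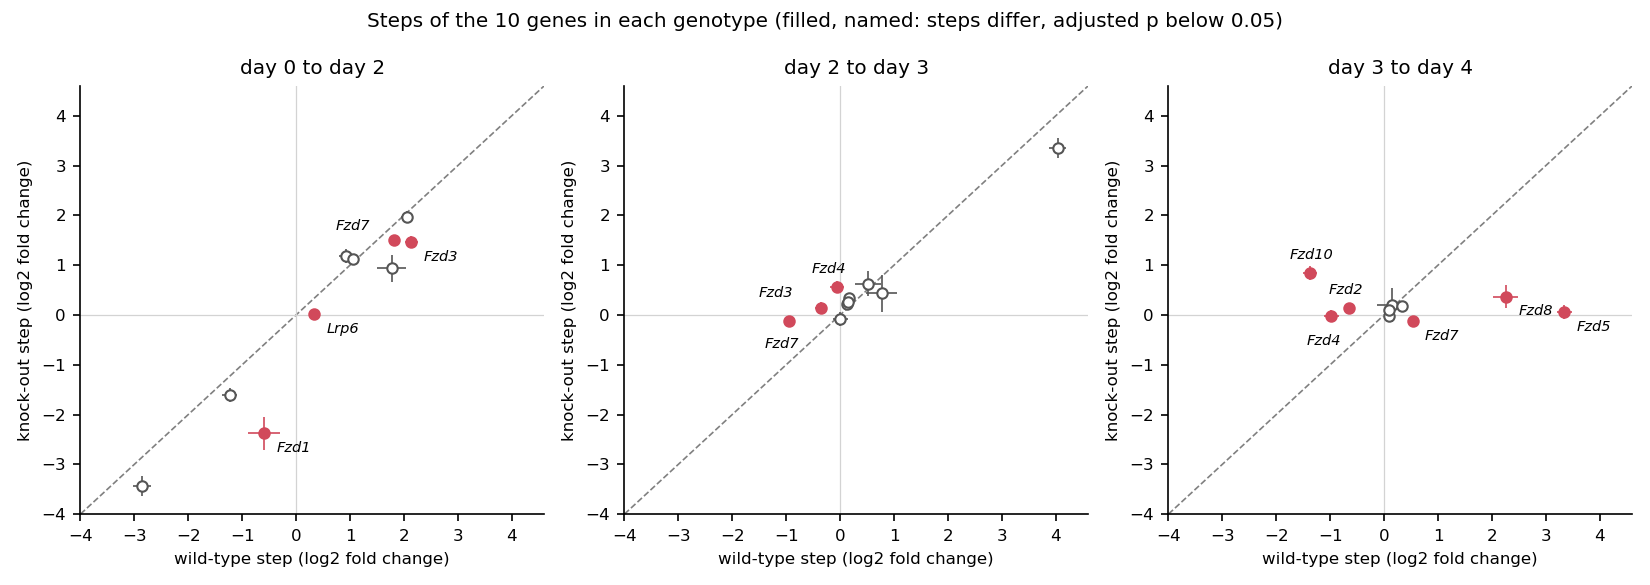
Log2 fold change of each of the 10 genes over a step in wild-type cells (horizontal axis) and in the knock-out (vertical axis), with standard errors, the dashed line marking equal steps. Genes whose steps differed are filled and named, and from day 3 to day 4 Fzd5 and Fzd8 lie at 3.35 and 2.26 on the wild-type axis and at 0.06 and 0.37 on the knock-out axis.

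Knock-out and wild-type cells were then compared within each day. At day 0, 2 of 10 members were higher and 2 lower in the knock-out, beside 10.6% and 10.5% of all genes. Fzd10 was at 11.7, 9.43 and 9.48 CPM in the knock-out and at 18.55, 24.4 and 24.5 CPM in wild-type cells (log2 fold change -1.14 ± 0.14, adjusted p = 1.43e-06), with no overlap. Fzd2 was also lower (-0.48 ± 0.12), and Fzd7 (0.34 ± 0.06) and Lrp6 (0.37 ± 0.05) were higher. Day 2 gave 1 higher and 5 lower members, beside 16.2% and 15.7% of all genes. Lrp5 was higher (0.33 ± 0.09), and Fzd10 (-1.71 ± 0.24), Fzd1 (-1.55 ± 0.34), Fzd8 (-0.77 ± 0.25), Fzd3 (-0.65 ± 0.11) and Fzd2 (-0.56 ± 0.11) were lower. At that day Fzd10 had fallen to 0.854, 0.815 and 1.15 CPM in the knock-out and to 3.36, 3.37 and 2.54 CPM in wild-type cells. The Fzd8 call at day 2 was lost without each of the 6 libraries but wild-type replicate 3 (adjusted p 0.0581 to 0.102), and without the filter on low counts. Without wild-type day 2 replicate 2 Lrp5 was at 0.26 (adjusted p = 0.0591). Fzd5 was at 39.9, 40.4 and 39.4 CPM in the knock-out and at 51.0, 48.8 and 46.1 CPM in wild-type cells at day 2, with no overlap. That difference did not pass the test (log2 fold change -0.29 ± 0.14, adjusted p = 0.13) but did in the fit on the compared groups alone, at -0.30 (adjusted p = 0.000772).

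Day 3 gave 4 higher and 5 lower members in the knock-out, beside 20.8% and 20.5% of all genes. Fzd10 was at 10.8, 9.06 and 9.25 CPM in the knock-out and at 58.6, 50.4 and 44.1 CPM in wild-type cells, 5.25-fold lower (log2 fold change -2.39 ± 0.14, adjusted p = 1.85e-12). Fzd7 went the other way, at 341, 343 and 321 CPM against 177, 187 and 199 CPM (log2 fold change 0.84 ± 0.05, adjusted p = 1.97e-11). In the knock-out Fzd7 had been at 359, 374 and 365 CPM at day 2, with no overlap with day 3, and this step did not pass the test (log2 fold change -0.13 ± 0.05, adjusted p = 0.0776) but did in the fit on the compared groups alone (adjusted p = 0.00195). Fzd4, the receptor of the ligand Norrin in retinal vessels, was higher (0.76 ± 0.13), as were Lrp5 (0.41 ± 0.09) and Lrp6 (0.16 ± 0.05). Fzd1 (-1.89 ± 0.31), Fzd8 (-0.66 ± 0.23), Fzd2 (-0.40 ± 0.10) and Fzd5 (-0.36 ± 0.14, log2 fold changes) were lower. The Fzd8 and Fzd5 calls of day 3 were fragile. Without wild-type day 3 replicate 1 Fzd8 was at -0.16 (adjusted p = 0.421) and Fzd5 at -0.24 (adjusted p = 0.249). Leaving out any knock-out library of day 3 also ended both calls, as did leaving out wild-type replicate 2 for Fzd5, with adjusted p-values of 0.0677 to 0.421 for Fzd8 and 0.0601 to 0.249 for Fzd5 over these libraries. Testing without the filter on low counts ended both calls too, DESeq2 size factors ended that of Fzd5 (adjusted p = 0.0567), and the fit on the compared groups alone ended that of Fzd8 (adjusted p = 0.224).

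At day 4, 5 members were higher and 4 lower in the knock-out, beside 26.3% and 27.6% of all genes. Fzd5 was at 38.4, 36.5 and 43.8 CPM in the knock-out and at 626, 475 and 384 CPM in wild-type cells, 12.5-fold lower (log2 fold change -3.64 ± 0.14, adjusted p = 2.43e-13). Fzd8 was at 23.6, 22.3 and 23.9 CPM and 144, 135 and 129.6 CPM, 5.85-fold lower (log2 fold change -2.55 ± 0.23, adjusted p = 3.15e-08). These were the widest gaps between the genotypes among the 10 members at that day, and in neither gene did a knock-out library reach a wild-type library. Fzd4 was higher, at 14.7, 16.9 and 15.3 CPM against 4.28, 4.38 and 5.55 CPM, 3.30-fold (log2 fold change 1.72 ± 0.14, adjusted p = 1.38e-10). Fzd1 was lower (-1.84 ± 0.31) and Fzd3 lower (-0.28 ± 0.11), the Fzd3 call being lost without replicate 1 or 2 of either genotype (adjusted p 0.0664 to 0.0863). Fzd2 (0.39 ± 0.10), Lrp5 (0.31 ± 0.09), Fzd7 (0.18 ± 0.05) and Lrp6 (0.17 ± 0.05) were higher. Fzd2 was thus lower in the knock-out at days 0, 2 and 3 and higher at day 4. Fzd10 stood at 17.6, 15.5 and 19.0 CPM in the knock-out and 16.7, 20.7 and 21.6 CPM in wild-type cells, a difference that did not pass the test (log2 fold change -0.18 ± 0.13, adjusted p = 0.26). Beside these values, all 6 definitive endoderm markers were lower in the knock-out at day 4. Of 5 tested stem cell markers 4 were higher and 1 lower, with sums of 706 to 750 CPM in knock-out and 188 to 308 CPM in wild-type libraries. Of 4 tested extraembryonic endoderm markers 3 were lower, of 5 mesoderm markers 5, and of 2 neuroectoderm markers 2 were higher. The extraembryonic endoderm markers summed to 4.86 to 6.23 CPM in knock-out and 33.2 to 72.2 CPM in wild-type libraries, the mesoderm markers to 3.86 to 8.12 and 114 to 207 CPM, and the neuroectoderm markers, of which Sox1 and Neurod1 were at 0 in every library, to 388 to 406 and 74.3 to 148 CPM. The part of the makeup of the cultures in the Fzd5 and Fzd8 values was not tested.

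**Figure D4:**
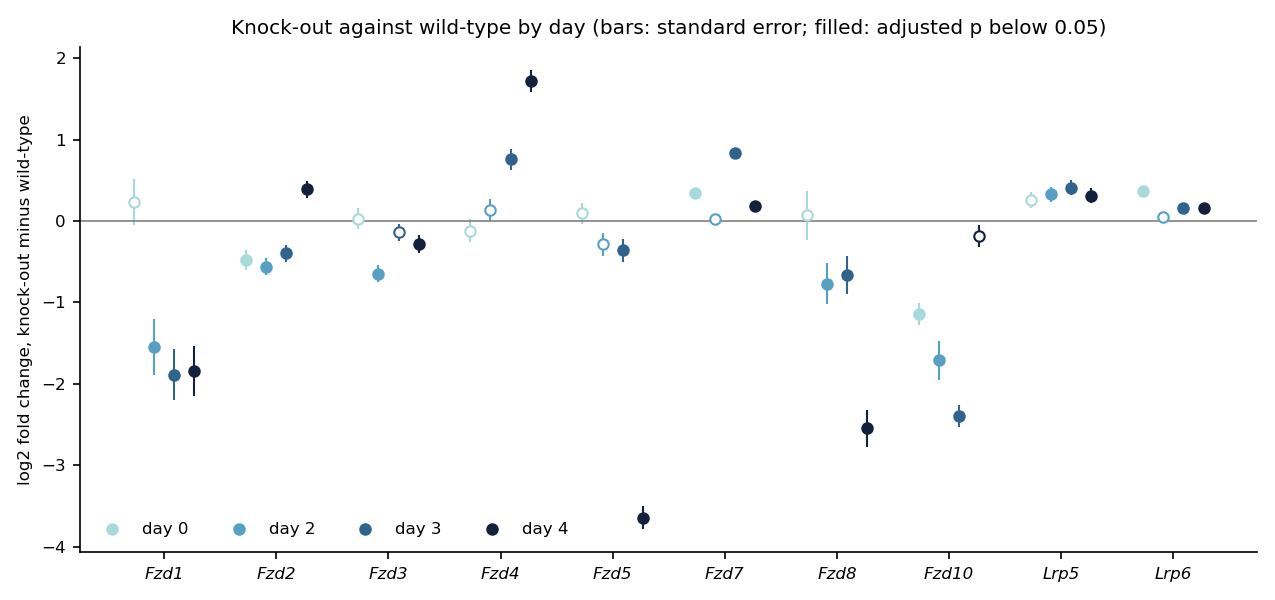
Log2 fold change of each gene, knock-out minus wild-type (vertical axis), at days 0, 2, 3 and 4 from light to dark, with standard errors and with calls filled. Fzd5 lies near 0 at day 0 and at -3.64 at day 4, Fzd10 is lowest at day 3 (-2.39), and Lrp5 and Lrp6 lie at or above 0 at each day.

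Fzd1 needs the feeder values beside it. At day 0 it was at 6.42, 10.7 and 10.0 CPM in wild-type replicates 1, 2 and 3 and at 16.6, 10.3 and 5.04 CPM in the knock-out. The summed fibroblast markers were 990.0, 1707 and 1454 CPM and 2579, 1826 and 953 CPM in the same libraries, and the order of the replicates was the same within each genotype. Fzd2 followed that order in both genotypes too, at 18.55, 20.8 and 18.9 CPM in wild-type cells and 15.7, 14.6 and 11.5 CPM in the knock-out. Fzd4 and Fzd8 followed it in the knock-out alone, and Lrp5 in wild-type cells alone. The part of feeder RNA in the day 0 levels of these genes was not tested. Nor was its part in their changes from day 0 to day 2 or in the day 0 difference of Fzd2 between genotypes. From day 2 on the fibroblast sums were at most 150 CPM, and Fzd1 stood at 6.05, 5.74 and 6.22, then 13.0, 8.57 and 9.16, then 11.7, 10.3 and 12.3 CPM in wild-type cells. In the knock-out it stood at 2.41, 2.34 and 1.40, then 3.13, 2.16 and 2.98, then 2.90, 3.09 and 3.55 CPM. No knock-out library of days 2 to 4 reached a wild-type library. The fibroblast sums at days 2, 3 and 4 were 78.0 to 91.5, 40.5 to 47.3 and 18.05 to 25.7 CPM in wild-type libraries and 89.0 to 150, 54.1 to 69.7 and 34.6 to 42.1 CPM in the knock-out. The wild-type step from day 0 to day 2 did not pass the test (log2 fold change -0.60 ± 0.29, adjusted p = 0.082), and it passed without wild-type day 0 replicate 1, at -0.83 (adjusted p = 0.0244), in the fit on those groups alone and in the DESeq2 Wald test.

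**Figure D5:**
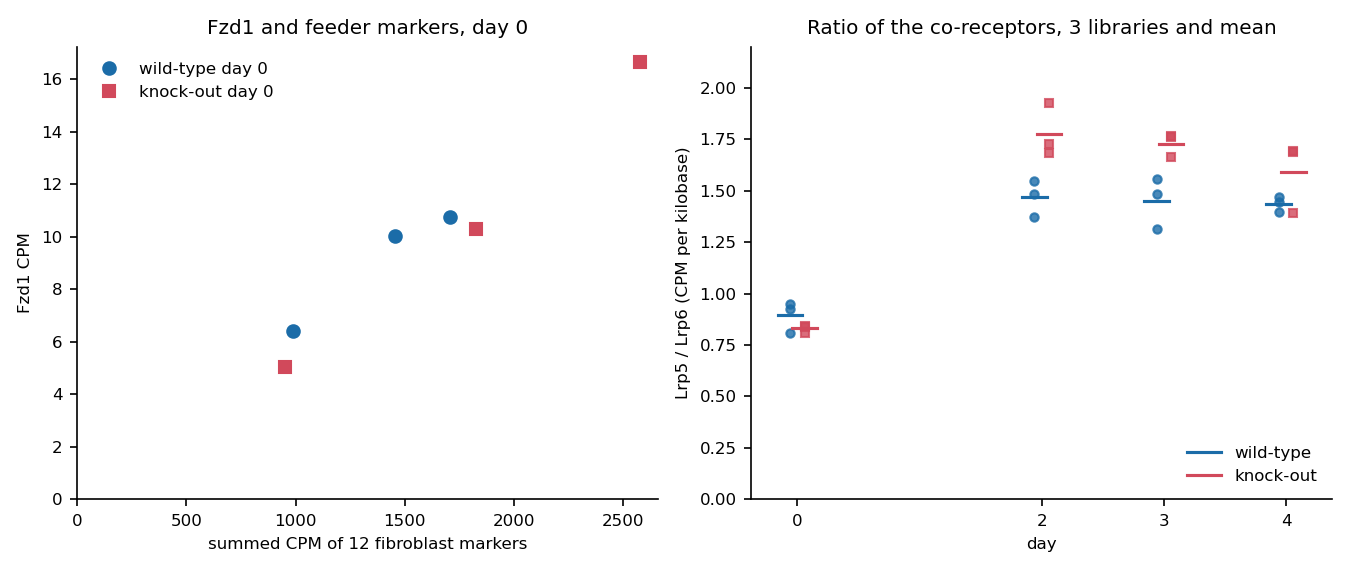
Left, Fzd1 (CPM) against the summed CPM of 12 fibroblast markers in the 6 libraries of day 0, both axes from 0. Right, the ratio of Lrp5 to Lrp6 in CPM per kilobase by day, by merged exon length, with 3 libraries and a bar at the mean for each genotype, which lies below 1 at day 0 and above 1 from day 2 on.

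The co-receptors spanned a narrower range over the days than Fzd5, Fzd8 and Fzd10. Lrp5 went from 47.0, 61.6 and 59.9 CPM at day 0 to 131, 132 and 143 CPM at day 4 in wild-type cells, and from 65.97, 67.1 and 68.7 to 179, 148 and 176 CPM in the knock-out. Lrp6 went from 81.7, 90.9 and 91.0 to 131, 129 and 137 CPM and from 109.7, 113 and 119 to 149, 149.8 and 146 CPM. Their highest group mean was 2.41 (Lrp5) and 1.504 (Lrp6) times the lowest in wild-type cells, against 10.2 for Fzd5, 16.5 for Fzd10 and 23.4 for Fzd8. Not every Frizzled spanned more: Fzd1 (1.90) and Fzd4 (2.06) were below Lrp5 in wild-type cells. In the knock-out this ratio was 2.52 for Lrp5 and 1.30 for Lrp6, against 3.22 for Fzd5, 3.82 for Fzd8 and 18.5 for Fzd10. Per kilobase, the ratio of Lrp5 to Lrp6 was 0.894 ± 0.0765 in wild-type cells at day 0 and 1.47 ± 0.0883, 1.45 ± 0.125 and 1.44 ± 0.0376 at days 2, 3 and 4. In the knock-out it was 0.830 ± 0.0176, 1.78 ± 0.129, 1.73 ± 0.0587 and 1.59 ± 0.173. Every library of day 0 was below 1 and every later library above it on this length. By the longest transcript of each gene, a length chosen after seeing the data, the ratio ran from 0.606 to 0.714 at day 0 and from 0.985 to 1.45 later, with 17 of 18 later libraries above 1 and wild-type day 3 replicate 1 at 0.985. Lrp5 was higher in the knock-out at days 2, 3 and 4, and at day 0 it did not pass the test (log2 fold change 0.26 ± 0.10, adjusted p = 0.0573) and passed without wild-type day 0 replicate 2, at 0.33 (adjusted p = 0.031), or replicate 3, at 0.31 (adjusted p = 0.0482). Lrp6 was higher at days 0, 3 and 4, its day 3 call being lost without wild-type day 3 replicate 1, at 0.13 (adjusted p = 0.0742), or knock-out day 3 replicate 1, at 0.14 (adjusted p = 0.0662).

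Ordered over the 8 groups, some neighbouring levels could not be separated. For Fzd7, 2 of 7 neighbouring pairs of groups had overlapping libraries, for Fzd10 3, for Fzd2, Fzd5, Fzd8 and Lrp6 4, and for Fzd1, Fzd3, Fzd4 and Lrp5 5. Fzd5 ran from the knock-out groups of days 3, 4 and 2, which overlapped, through wild-type days 2 and 3, which overlapped too, to both genotypes at day 0 and then wild-type day 4. Fzd10 was lowest in the knock-out at day 2 (0.939 ± 0.182 CPM), then in wild-type cells at day 2 (3.09 ± 0.477 CPM), and highest in wild-type cells at day 3 (51.0 ± 7.29 CPM). Fzd4 was lowest in 3 overlapping groups, knock-out day 0, wild-type day 4 and wild-type day 0, and highest in the knock-out at days 4 and 3. Fzd8 was lowest in both genotypes at day 0 and highest in wild-type cells at day 4, and from knock-out day 3 through wild-type day 2 and knock-out day 4 to wild-type day 3 each group overlapped the next.

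The other two Frizzled genes, Fzd6 and Fzd9, give a comparison. Fzd6, the relative of Fzd3, had means of 9.70 CPM at day 0 and 53.2 CPM at day 4 in wild-type cells and of 9.17 and 63.4 CPM in the knock-out, and it did not pass the test between genotypes at any day. Fzd9, the relative of Fzd10, was at most 3.61 CPM in any group mean. It was lower in the knock-out at day 2 (-1.61 ± 0.32) and day 3 (-1.23 ± 0.27, log2 fold changes), and Fzd10 was lower at those days and at day 0.

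Genes that act on or beside the receptors were counted in the same comparisons. The medians of all tested genes (log2, knock-out minus wild-type) were 0.0059, -0.0077, -0.0096 and -0.013, and those of the 10 members were 0.08, -0.42, -0.25 and -0.01 at days 0, 2, 3 and 4. Of all tested genes, 10.6%, 16.2%, 20.8% and 26.3% were higher and 10.5%, 15.7%, 20.5% and 27.6% lower at days 0, 2, 3 and 4, and the counts of each list are to be read against these shares. The list of other Wnt receptors also held Fzd6, described above, and polarity genes that are not Wnt receptors, such as Celsr1 and Vangl1. Of its 15 tested genes, 1, 0, 0 and 3 were higher and 2, 5, 7 and 5 lower in the knock-out at days 0, 2, 3 and 4 (medians -0.08, -0.22, -0.09 and 0.02). Among them Celsr1, a planar polarity cadherin, was lower at day 4 (-2.27 ± 0.10), as were Ror2, the co-receptor of Wnt5a (-2.14 ± 0.16), and Vangl1, a core polarity protein (-1.23 ± 0.09, log2 fold changes). Of 8 tested genes of receptor turnover, 2, 1, 2 and 3 were higher and 0, 3, 2 and 3 lower (medians 0.16, -0.39, 0.16 and -0.002). Lgr4, a receptor of the R-spondins that keep Frizzled on the surface, was higher at each of the 4 days and by 1.04 ± 0.06 at day 4, and Rspo1 by 2.38 ± 0.19. Rnf43, a ubiquitin ligase that removes Frizzled from the surface, was lower at day 4 (8.28 CPM in wild-type and 4.15 CPM in knock-out means).

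Of 16 tested antagonists of the receptors, 0, 1, 3 and 3 were higher and 3, 5, 5 and 6 lower in the knock-out at days 0, 2, 3 and 4 (medians -0.08, -0.16, -0.17 and 0.05). For these lists too the shares over all tested genes were 10.6%, 16.2%, 20.8% and 26.3% higher and 10.5%, 15.7%, 20.5% and 27.6% lower. At day 4 the Frizzled-related decoys Sfrp1 (-4.12 ± 0.27) and Sfrp5 (-7.66 ± 0.40) were lower, as was Shisa2, which holds Frizzled in the endoplasmic reticulum (-3.29 ± 0.17). Of 17 genes of receptor maturation and proximal signalling, 5, 3, 4 and 3 were higher and 0, 3, 6 and 7 lower (medians 0.08, 0.04, 0.04 and -0.07). Mesd, the chaperone of LRP5 and LRP6, was lower at day 4 (-0.64 ± 0.07), as was Porcn, which adds the lipid to Wnts (-2.13 ± 0.16). Of 16 tested Wnt ligands, 0, 1, 1 and 0 were higher and 7, 5, 7 and 6 lower, with Wnt3 at -2.37 ± 0.16 at day 3 (medians -0.72, -0.89, -1.75 and -1.11). Setting a ligand with 0 counts in a group at the bound given by 3 counts over the group moved the day 4 median of the ligands to -0.79, and moved no median of the other lists named in this comparison by 0.01 or more. Of 14 tested Wnt target genes, 0, 2, 1 and 3 were higher and 8, 4, 9 and 6 lower, with Axin2, a feedback inhibitor, at -2.23 ± 0.17 at day 3 (medians -0.71, -0.11, -1.11 and -0.70). No p is given for any list.

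For each member up to 3 genes whose log2 CPM followed it most closely over the 24 libraries were taken from 10214 named genes averaging 5 CPM or more. The points share day and genotype, so r is a description. Fzd5 was followed by Cd55 (0.98), Gfpt2 (0.97) and Hnf4a (0.97), Hnf4a being a transcription factor of endoderm and liver. Hnf4a averaged 5.51 CPM and is one of the extraembryonic endoderm markers summed above. Fzd8 was followed by Adamts10 (0.97), Aldh1l1 (0.97) and Bet1 (0.96). Fzd10 was followed by Nodal (0.94), Cask (0.92) and Ndrg1 (0.91), Nodal being the ligand of the pathway that Activin A drives. Fzd7 was nearest to Sez6 (0.98) and Zfp217 (0.97), and Fzd2 to Cyyr1 (0.98), Aif1l (0.98) and Zic2 (0.98). Fzd3 was nearest to Krtcap3 (0.99), Stap2 (0.98) and Pimreg (0.98), and Fzd4 to Gli3 (0.96), Slc27a2 (0.96) and Rbpms2 (0.95), Gli3 being a Hedgehog transcription factor. For Fzd1 the genes were Penk (0.96), Prkar1a (0.95) and Slit2 (0.95), for Lrp5 Bcorl1 (0.99), Gak (0.98) and Ucp2 (0.98) and for Lrp6 Strn (0.95), Ranbp9 (0.95) and Ikbkb (0.94). Among the members themselves Fzd2 and Fzd3 had the highest r (0.92) and Fzd4 and Fzd5 the lowest (-0.83).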

How the data were processed

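PolyA+ RNA of 24 libraries was analysed. Per the submitters' processing notes the authors used Trimmomatic and HISAT2 with GRCm38.p6; versions, the counting tool, its annotation and strand setting: not given in the sources used here. The deposited table holds raw counts per gene, which the authors gave for all 24 libraries. GENCODE M21, used for exon lengths and coordinates, held 55141 of its 55401 identifiers. Counts were analysed with edgeR 4.0.16 in R 4.3.3: filterByExpr by group, TMM scaling and a robust quasi-likelihood fit over the 8 groups with no replicate block, 13 contrasts, and Benjamini-Hochberg adjustment over 17144 genes at 0.05. The common biological coefficient of variation was 0.0906. CPM use TMM-scaled library sizes. Standard errors are the absolute log2 fold change over the root of F, so they are approximate. The code was tested on simulated data. DESeq2 1.42.0 and the other alternatives are in the closing section. The members and lists were chosen with earlier results of these data known. Every member is named, as are up to 3 genes of a list with the lowest adjusted p in a comparison and the 3 genes most like each member, of which 1 is not reported here. Pou5f1, Nanog, Sox2, Gm38058, Fzd6 and Fzd9 are named outside this rule.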

Additional observations from a re-analysis of the deposited data

Results flagged for a closer look

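Each member listed here had a step that differed between the genotypes by the test of the difference itself (knock-out step minus wild-type step, log2 scale, quasi-likelihood test of edgeR, adjusted p under 0.05). Day 3 to day 4 gave Fzd5 at -3.28, Fzd8 at -1.89, Fzd7 at -0.65, Fzd10 at 2.21, Fzd4 at 0.96 and Fzd2 at 0.79. Day 2 to day 3 gave Fzd7 at 0.81, Fzd4 at 0.62 and Fzd3 at 0.51. Day 0 to day 2 gave Fzd1 at -1.78, Fzd3 at -0.68, Lrp6 at -0.32 and Fzd7 at -0.32. The values of this step, that of Fzd1 among them, rest on day 0 libraries whose fibroblast marker sums ran from 953 to 2579 CPM. The part of feeder RNA in them was not tested. As given above, some alternative fits or left-out libraries ended the calls of Fzd1, Fzd3 and Fzd7 from day 0 to day 2. The same held for Fzd4 and Fzd3 from day 2 to day 3. Fzd10 passed no such test from day 0 to day 2 (log2 fold change -0.57 ± 0.28, adjusted p = 0.238) or from day 2 to day 3 (log2 fold change -0.68 ± 0.29, adjusted p = 0.141), although its level differed between genotypes at days 0, 2 and 3. Groups of 3 libraries were not searched for outlying libraries.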

How the results depend on the processing

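Of 130 pairs of a member and a comparison, 76 were called, none of them changed sign under any alternative, and 59 kept the call under all of them. Besides the left-out libraries there were 5 alternatives: DESeq2 size factors in the edgeR fit, no filter on low counts, a fit on the compared groups alone, a replicate block and the DESeq2 Wald test. They took the call from 7 pairs and gave one to 10, and leaving out a library took it from 17 and gave one to 3. Of the 54 uncalled pairs, 19 changed sign under some alternative. Without the filter the count of changed members for wild-type day 3 against day 2 was 3 instead of 5. In the fit on the compared groups alone it was 7 instead of 4 for knock-out day 3 against day 2, and 4 instead of 1 for knock-out day 4 against day 3. Shares over all tested genes were not taken for any alternative, so these counts have none beside them. Leaving out 1 library at a time gave 3 to 6 members for wild-type day 3 against day 2 (3 without wild-type day 2 replicate 2), 2 to 4 for the difference of the steps from day 0 to day 2, 1 to 3 for that from day 2 to day 3 and 6 to 6 for that from day 3 to day 4. For the day comparisons it gave 4 to 5, 4 to 6, 6 to 9 and 8 to 9 members at days 0, 2, 3 and 4. The Fzd5 log2 fold change, knock-out day 4 against day 3, uncalled at 0.06, ran from -0.015 without knock-out day 4 replicate 3 to 0.12 without knock-out day 4 replicate 2, and the cause was not tested. Whether the replicate numbers pair the libraries is not settled, and the main fit has no replicate block. In 0 of 10 comparisons were all same-numbered correlations of deviations over 0.1 (range -0.15 to 0.165). Yet 19 of 24 libraries correlated best with their own number. With the replicate block the counts were 5 instead of 4 for the day 0 comparison, where Lrp5 gained a call (0.26, adjusted p = 0.043), and for knock-out day 3 against day 2, where Fzd8 did (0.63, adjusted p = 0.0258), and no other count moved. Shares by longest transcript differed little, the group means of the Lrp5 to Lrp6 ratio fell by more than 1 SD, and with Fzd6 and Fzd9 in the sum those of the 8 members were lower. The lowest levels limit precision: Fzd10 had 16 counts in its poorest library and Fzd1 had 28. With 3 libraries a group, and 1 knock-out line, smaller differences may have been missed, and the design cannot separate line from gene.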
